A study of Mus musculus with 6 samples.

Results

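miR-21a is the mouse form of miR-21, a microRNA (miRNA) conserved across vertebrates. Its 2 members here are the mature arms miR-21a-5p (entry mmu-miR-21a-5p, 9945 reads) and miR-21a-3p (entry mmu-miR-21a-3p, 2 reads), taken by name from a table of 1963 distinct mouse mature sequences, and neither was chosen for its count. Entries of other species named miR-21 or miR-21a were used as records of further end forms of the same arms, and each distinct sequence was counted once. There were 81 such entries from 56 species codes, which with the 2 mouse entries gave 23 distinct sequences. Of these, 8 were found letter for letter in the mouse hairpin and 15 were not.

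The study sequenced small RNA from the livers of mice injected with AAV9, an adeno-associated virus used to carry genes into mouse tissues. Mice of the Cre group received AAV-Tnnt2-Cre, in which Cre recombinase stands behind a Tnnt2 (cardiac troponin T) promoter, a choice that aims expression at cardiomyocytes. Mice of the Cre-miR122 group received AAV-Tnnt2-Cre-miR122, whose added miR122 part is not described further in the labels. The labels give no strain, age, sex, dose or time, and no injury model. They name 6 libraries, 3 in each group, and the values below come from 1 of them, Cre-miR122 replicate 2. The other 5 were not analysed here, so no difference between groups, and no response of miR-21a to injury, was tested.

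A miRNA is cut from a hairpin transcript by the enzymes Drosha and Dicer, which leave a short duplex. One strand of the duplex, here usually the 5p arm, is kept by an Argonaute protein, and its seed, bases 2 to 8 from the 5′ end, pairs with target mRNAs. miR-21 is known for its rise in injured, regenerating, fibrotic and tumour-bearing liver. Among its well studied targets are Pdcd4, which encodes an inhibitor of translation, and Spry genes, which encode brakes on growth factor signalling. The 3′ end of a mature miRNA varies more than its start, because the cut position shifts and because bases can be trimmed or added afterwards. A form that ends elsewhere keeps the seed but is another sequence when reads are matched to a list.

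The mature sequences of both arms are shown with the seed in capitals, since the seed defines what they share with other miRNAs.
miR-21a-5p: tAGCTTATcagactgatgttga
miR-21a-3p: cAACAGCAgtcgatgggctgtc
Both were identical to the RefSeq sequences of Mir21a (GRCm38.p6) once U was written as T. On that build Mir21a occupies chromosome 11, 86584067 to 86584158, minus strand, with miR-21a-5p at 86584120 to 86584141 and miR-21a-3p at 86584082 to 86584103. GENCODE places the hairpin inside exon 12 of Vmp1, a gene of autophagy on the same strand, in the 3′ untranslated part of that exon (86583865 to 86585310). The hairpin has 92 bases, with miR-21a-5p at bases 18 to 39 and miR-21a-3p at bases 56 to 77.

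The forms that carried the reads of the 5p arm are shown next, with the bases beyond the mouse entry in capitals.
22 bases, the mouse entry: tagcttatcagactgatgttga
23 bases: tagcttatcagactgatgttgaC
24 bases: tagcttatcagactgatgttgaCT
25 bases: tagcttatcagactgatgttgaCTG
The added C, T and G are the next bases of the mouse hairpin. A longer cut and the addition of the same base after cutting therefore cannot be told apart for these forms. They leave 16, 15, 14 and 13 bases of the hairpin before the start of the 3p arm. All of them start at the same base and carry the same seed, and the table records no 5p form that starts elsewhere in the hairpin.

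The library held 8163802 reads over all distinct sequences of the table, of which 6661069 were counted for mouse sequences. Reads that were counted for other species' entries lying in mouse hairpins bring the mouse sum to 8032202. Of 1963 mouse sequences 546 had a read, and their median was 18 reads. A count of 0 allows up to 3 reads, or 4.5e-05% of mouse reads. Intervals in parentheses are exact 95% intervals that cover the counting error of reads only. They include neither differences between animals nor PCR copies, which were counted as separate reads. All 3 hepatocyte markers examined were present, led by miR-148a-3p and miR-122-5p. Striated muscle markers were present too, with 1165464 reads over miR-1a-3p, miR-206-3p and miR-133a-3p including end forms. Of these, miR-1a-3p had 1065891 reads, more than the 685102 of miR-122-5p, and was second only to miR-148a-3p among mouse miRNAs. Whether RNA from muscle contributes to the miR-21a reads was not tested, nor was any effect of the vector's miR122 part on the miR-122-5p reads.

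miR-21a-5p was found mainly as forms longer than its mouse entry. The 23-base form had 52055 reads, the 24-base form 16760, the 22-base mouse entry 9945 and the 25-base form 2. The 23-base form thus held 66.1% (65.8 to 66.4) of the 78762 reads of the arm, the 24-base form 21.3% (20.99 to 21.57) and the mouse entry 12.6% (12.4 to 12.9). Together the longer forms held 87.4% (87.1 to 87.6). The 23-base form outnumbered the mouse entry 5.23 to 1 (5.12 to 5.35), and the 24-base form outnumbered it 1.69 to 1 (1.64 to 1.73).

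The extension stopped abruptly. The 24-base form had 8380 reads per read of the 25-base form (2319 to 69200), and the 2 reads of the 25-base form are under the floor of 3. Another form with 2 reads was the salmon entry of 24 bases, which differs from the mouse hairpin by A16G, counted from 1 at the 5′ end. It held 0.0119% (0.00145 to 0.0431) of the reads of both 24-base sequences. The 25-base form and the substituted form thus had the same count, at the limit of what this depth resolves.

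Several ends could not be seen. No entry of the table records miR-21a-5p ending before base 22, so reads that are shorter at the 3′ end have no entry of their own. Whether any such reads were counted on a longer entry is not known, because the counting rule is not stated. In the same way no entry carries the mouse 5p sequence followed by 1 or 2 bases other than those of the hairpin. The share of the mouse entry is therefore a share of 4 recorded forms and not of all molecules of the arm.

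**Figure D1:**
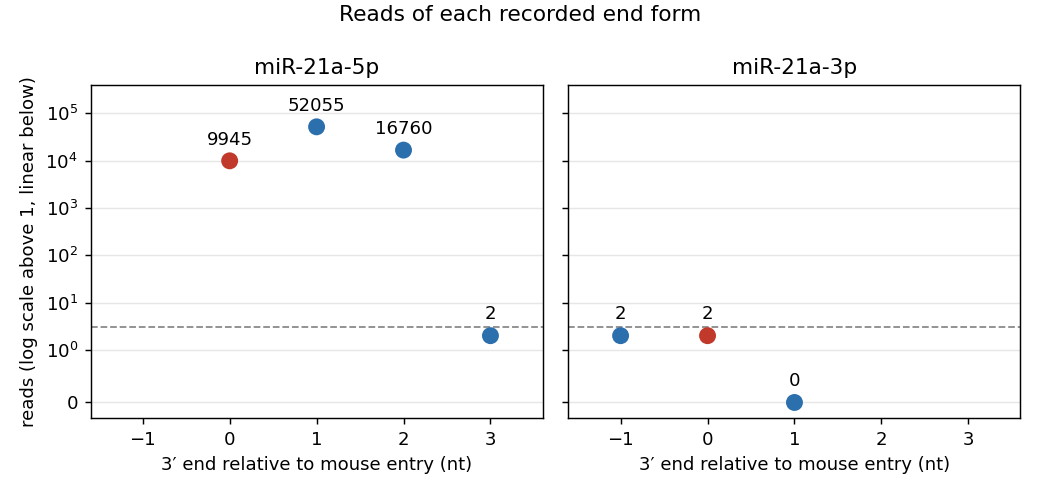
Reads (log scale above 1, linear below) of each recorded end form that starts at the same base as the mouse entry, against the distance of its 3′ end from that of the mouse entry in nt; red marks the mouse entry and the dashed line the floor of 3 reads. On the 5p arm the forms 1 and 2 nt longer, with 52055 and 16760 reads, lie above the mouse entry with 9945, and the 3p arm has at most 2 reads in any form.

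The list of names repeats these sequences. The 22-base form is entered for 25 species, human, mouse and rat among them, the 23-base form for 10, including goat and sheep, the 24-base form for 4, including cattle and rabbit, and the 25-base form for the Tasmanian devil alone. A read total summed over all 83 entries named miR-21 or miR-21a would be 836241, which is 10.6 times the 78768 reads of the distinct sequences. Of the 15 sequences outside the mouse hairpin, 14 had 0 reads, and the salmon form above was the exception. The 0-read sequences included the human and macaque 3p entries, which carry G6C in the seed relative to mouse. With 2 reads on the mouse 3p entry, the depth was too low on that arm to separate species by this base.

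miR-21a-3p was almost undetected. Its mouse entry had 2 reads, a form 1 base shorter had 2, and 2 further hairpin forms had 0, among them the cattle entry that starts 1 base later and so has a shifted seed. The arm thus had 4 reads, or 0.00508% (0.00138 to 0.0130) of the 78766 reads of both arms. By mouse entries there were 4972 reads of the 5p arm per read of the 3p arm (1376 to 41070). With end forms there were 19690 (7690 to 72270). The second value lies within the interval of the first, and both intervals are wide because the 3p arm had so few reads. The mouse entry was 1 of 51 mouse sequences with 2 reads, which share ranks 399 to 449.

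This one-sided use of arms was common among abundant hairpins. Of 100 hairpins with 2 annotated arms, distinct pairs of arms and at least 1000 reads in all, the minor arm held a median of 0.446% of the reads, and 19 had a lower share than Mir21a, 13 of them with 0 reads on the minor arm. Among the 37 with at least 10000 reads the median was 0.0551%, and Mir21a was the 11th lowest. Mir26a-1 and Mirlet7g, with 0.00425% and 0.00391%, came just before it, and Mir194-1, with 0.00538%, just after. Each of these 4 hairpins had between 1 and 4 reads on the minor arm, so their order is not resolved. Of the hairpins nearest in total to Mir21a, Mir27b with 77912 reads kept 0.116% on its minor arm and Mir192 with 82279 reads kept 0.00122%. The arm sequences of some hairpins, such as miR-26a-5p, come from more than 1 locus, and their reads were given to each.

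No reads of another mouse miRNA with a miR-21a seed were found at this depth. Mouse has 2 further miRNAs of this name and 1 other miRNA with the same bases 2 to 8, which are set in capitals.
miR-21b: tAGTTTATcagactgatatttcc
miR-21c: tAGCTTATcagactggtacaa
miR-590-5p: gAGCTTATtcataaaagtgcag
miR-21c shares the first 15 bases of miR-21a-5p, seed included, and lies on chromosome 8 at 128278188 to 128278208, minus strand. miR-21b, on chromosome 3 at 29636768 to 29636790, plus strand, has another seed through C4T and equals miR-21a-5p at 18 of 22 positions, the other differences being G18A, G21T and A22C. miR-590-5p carries the miR-21a seed in an otherwise different sequence. All 3 had 0 reads, with and without end forms, which allows up to 3 reads each. No other mouse miRNA had the seed of miR-21a-3p.

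The counted form set where miR-21a-5p stood among mouse miRNAs. Its mouse entry held 0.149% (0.146 to 0.152) of mouse reads and ranked 23rd. It lay below miR-100-5p with 18091 reads and miR-30d-5p with 14040, and above miR-99b-5p with 9101 and miR-152-3p with 8653. With end forms counted for every miRNA, it held 0.981% (0.974 to 0.987) of the enlarged sum and ranked 16th. It then lay between miR-192-5p, which is enriched in liver and intestine, with 82278 reads, and miR-27b-3p with 77822. By the most abundant single form of each arm it ranked 15th, just below miR-126a-3p, an endothelial miRNA, with 59356 reads.

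The rise of 7 places came from passing 7 miRNAs: miR-27b-3p, miR-379-5p, let-7a-5p, let-7c-5p, miR-30c-5p, miR-100-5p and miR-30d-5p. The mouse entry held over 70% of the arm in 6 of them, and 19.9% in miR-30d-5p. Of the miRNAs below miR-21a-5p by mouse entry, 0 passed it when end forms were added. End forms included, 28 arms had 10000 reads or more, of which 11 rose in rank, 11 fell and 6 kept their place, and 6 rose further than miR-21a-5p. The highest rise was that of miR-133a-3p, a muscle miRNA, from rank 73 to 28. The places moved depend on how closely the neighbours lie as well as on the reads added.

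A list that records another end would give other ranks. If the 23-base form alone had stood for miR-21a-5p, with every other miRNA left at its mouse entry, its 52055 reads would have ranked 15th, with 0.777% of mouse reads. The 24-base form, as cattle and rabbit entries have it, would have ranked 22nd with 0.251%. The 25-base form, with 2 reads, would have ranked 398th at best, in a tie with the 51 mouse sequences of 2 reads. Adding all forms for miR-21a-5p alone, with the others by mouse entry, would have placed it 9th with 1.17%, a rank that compares unlike counts. That was 7 places above its rank with end forms counted for every miRNA. The latter rank also depends on how many forms the list records for each arm. These were 9 for miR-126a-3p, 4 for miR-21a-5p and 1 for miR-151-3p, for example.

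**Figure D2:**
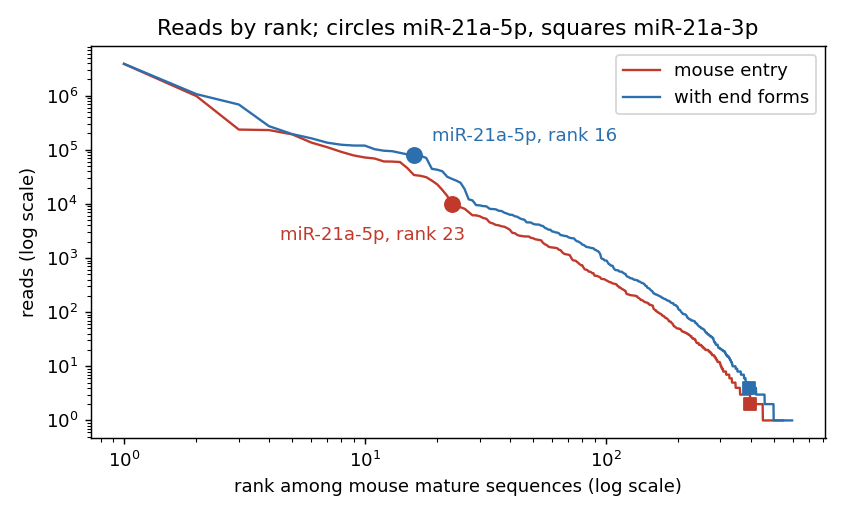
Reads of each mouse mature sequence (log scale) against its rank (log scale), by mouse entry in red and with end forms in blue; circles mark miR-21a-5p and squares miR-21a-3p. miR-21a-5p moves from rank 23 with 9945 reads to rank 16 with 78762, while miR-21a-3p stays near the bottom with 2 and 4 reads.

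Arms whose mouse entry missed most reads were not rare, but few abundant ones were as extreme as miR-21a-5p. For arms of 10000 reads or more, 28 in number, the median share on the mouse entry was 77.1%, and only miR-99a-5p with 7.28% and miR-133a-3p with 7.88% lay below the 12.6% of miR-21a-5p. In miR-99a-5p the missing reads lay in a shorter form, so that 92.7% of its reads ended before the mouse entry. In none of the 28 was the share of 3′ extended reads higher than the 87.4% of miR-21a-5p, and the next were miR-30d-5p with 79.6% and miR-26b-5p with 79.4%. This order depends on the ends recorded. Entries 1 and 2 bases longer both existed for 7 of the 28, and 5 had no shorter entry at the same start. miR-21a-5p was in both sets. Over the 95 arms with at least 1000 reads the median of the mouse entry was 69.3%, 16 arms lay below miR-21a-5p, and 5 had a higher extended share. These shares have no replicate, and no test of a difference between miRNAs was made.

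**Figure D3:**
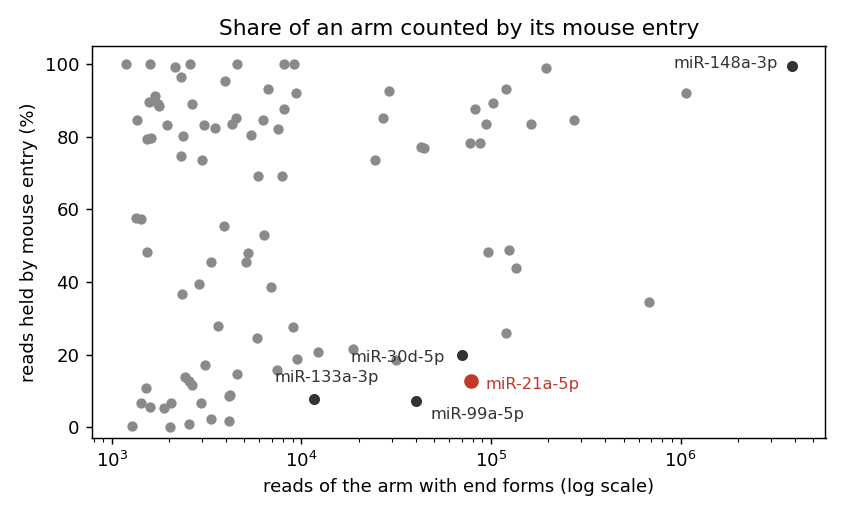
Percentage of an arm's reads held by its mouse entry against the reads of the arm including end forms (log scale), for the 95 arms with at least 1000 reads. miR-21a-5p (red) has 12.6% at 78762 reads, with miR-99a-5p and miR-133a-3p the only arms of at least 10000 reads below it.

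Arms differ in which ends the list records, so the comparison was repeated where entries exist for the mouse end and for ends 1 and 2 bases later. This held for 22 of the 95 arms. In the 21 other than miR-21a-5p, the form 1 base longer outnumbered the mouse entry in 9 and the form 2 bases longer did so in 5. Median shares over these 21 were 53.0% for the mouse entry, 39.6% for the form 1 base longer and 1.26% for the form 2 bases longer. miR-21a-5p had a lower share on the mouse entry than 20 of the 21, the exception being miR-30e-5p with 8.82%. Its share on the form 1 base longer was exceeded by 3 arms and that on the form 2 bases longer by 6.

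**Figure D4:**
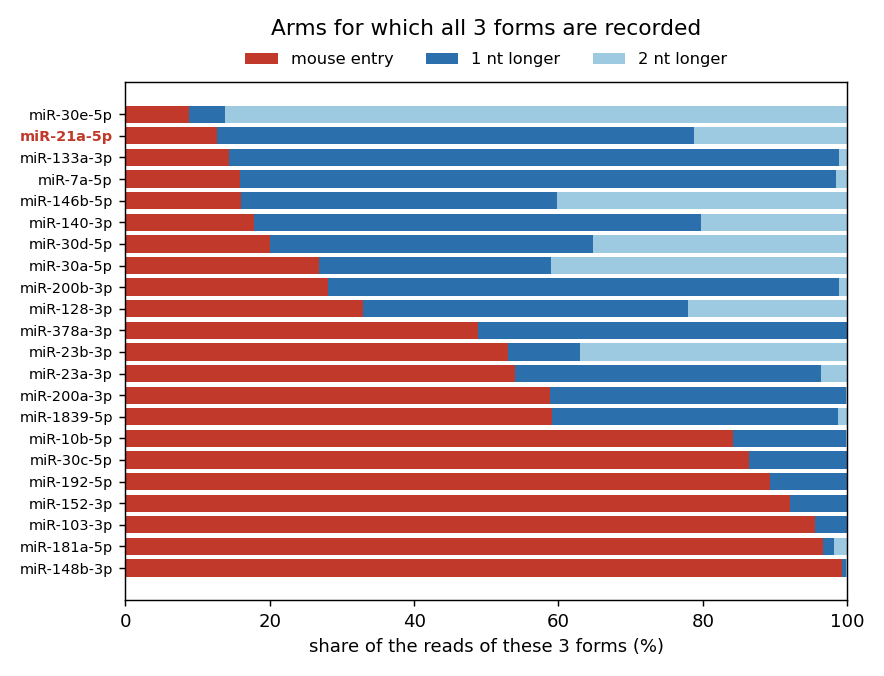
Share (%) of the reads of 3 forms, the mouse entry (red), 1 nt longer (dark blue) and 2 nt longer (light blue), in each of the 22 arms for which all 3 are recorded, ordered by the share of the mouse entry. miR-21a-5p is the second bar, with 12.6%, 66.1% and 21.3%.

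The 3′ end profile closest to that of miR-21a-5p was that of miR-140-3p, a miRNA known from cartilage. Likeness was the sum of absolute differences of read shares over ends from 5 bases before to 5 bases after the mouse entry, for 90 other arms with at least 1000 reads at the same start, in this library. The sum was 10.3 percentage points for miR-140-3p, against a median of 174 over the 90 arms. Any arm without reads on longer forms scored 174.7 if its mouse entry held a larger share than that of miR-21a-5p. The median therefore largely reflects which arms have longer ends recorded and read, and does not measure how rare such a likeness is. In miR-140-3p the mouse entry held 17.8% of the 2109 reads at its start, the form 1 base longer 62.0% and the form 2 bases longer 20.3%. A further 49.5% of the 4176 reads of miR-140-3p started at another base and are not in this profile, and the mouse entry held 8.98% of all its reads. The next were miR-7a-5p at 39.6 points and miR-133a-3p at 40.2, in both of which the form 1 base longer dominated and the form 2 bases longer held under 2%. In miR-133a-3p 44.9% of reads started at another base. For miR-7a-5p and miR-21a-5p the list records no form with another start, so reads starting elsewhere had no entry of their own. The profiles share the library and depend on the ends recorded, so the likeness is a description.

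miR-21a-5p exceeded each of a chosen list of 16 miRNAs that are known to change in injured or fibrotic liver, under both ways of counting. The list is not complete and was chosen with earlier results of these data known. Its lead therefore holds for these 16 only, and depends on which miRNAs were listed. By mouse entries it had 9945 reads, against 10682 for the 16 together. With end forms it had 78762 against 24457, or 3.22 times their sum. All 16 had reads, with a median of 60 by mouse entry and 182 with end forms. The medians over mouse sequences with reads were 18 and 21. Without an uninjured or control library, these levels do not show whether any member was raised.

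Members of the list followed miR-21a-5p at different distances. Among miRNAs of inflammation, miR-146a-5p, a brake on innate immune signalling, had 4090 reads by mouse entry and 5906 with end forms. miR-155-5p, which is induced in activated leukocytes, had 37 and 53. The myeloid miR-223-3p had 42 and 63. miR-21a-5p thus had 13.3 reads per read of miR-146a-5p with end forms and 1250 per read of miR-223-3p. Leukocyte markers were low throughout, with 802 reads over 5 markers including end forms.

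Among miRNAs of stellate cells and fibrosis, miR-199a-3p, whose sequence is also that of miR-199b-3p, was the highest with end forms, at 1794 and 9500 reads. miR-199a-5p had 3574 and 4285, an order reversed between the arms by the counting. miR-214-3p, from the same transcript as miR-199a-2, had 62 and 198. Of the miR-29 members, which target collagen mRNAs, miR-29a-3p had 158 and 904 reads, above the medians of the list. miR-29b-3p had 2 and 8, and miR-29c-3p 5 and 10. miR-34a-5p, a p53 target, had 92 and 157, and miR-210-3p, induced by hypoxia, had 18 and 21.

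The counting also moved the margin by which miR-21a-5p led. It had 2.43 reads per read of miR-146a-5p by mouse entries, the nearest member under that count, and 8.29 per read of miR-199a-3p with end forms, the nearest under the other. Over the 16 members the median share of the arm on the mouse entry was 54.3%, and it was under 50% in 7 of them. It held less than in miR-21a-5p only in miR-222-3p, where 25 of 249 reads, or 10.04%, were on the mouse entry. miR-222-3p and miR-221-3p share a seed and a transcript, and their ratio turned from 25 against 340 reads to 249 against 420.

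**Figure D5:**
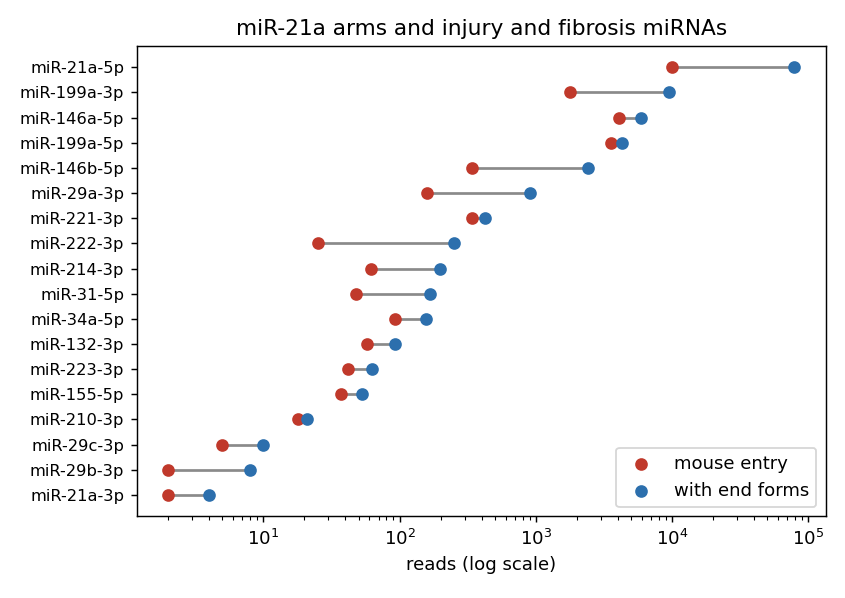
Reads (log scale) of both miR-21a arms and of the 16 miRNAs of the injury and fibrosis list, by mouse entry (red) and with end forms (blue), ordered by the latter. miR-21a-5p lies at the top with 9945 and 78762 reads, and miR-21a-3p at the bottom with 2 and 4.

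Set against 22 markers of cell types, miR-21a-5p lay below 7 and above 15 under both counts. With end forms it fell between miR-192-5p with 82278 reads and miR-133a-3p with 11609, and had 0.584 reads per read of the endothelial miR-126a-3p. Of 4 stellate cell and fibroblast markers only miR-143-3p lay above it, with 0.484 reads of miR-21a-5p per read. It had 18.4 reads per read of miR-199a-5p, 33.3 per read of miR-145a-5p and 398 per read of miR-214-3p. It exceeded all 5 leukocyte, 3 red cell and 3 cholangiocyte markers examined under both counts. In bulk tissue, a larger number of cells that make miR-21a and more of it per cell cannot be told apart, and these reads do not say which cells they came from.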

How the data were processed

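Total RNA of liver was made into small RNA libraries by ligating adapters to both ends, reverse transcription, PCR and selection of inserts of 18 to 40 bp, then sequenced as single reads, per the labels' protocols. Molecular identifiers are not mentioned, and ligation favours some ends over others. The deposited values are raw counts, per the file headers for the cleaned reads of 1 library, with 1 value for each entry in a list of mature miRNAs. Its header matched Cre-miR122 replicate 2 alone. The mm10 build (GRCm38) is named by the submitters' processing notes, while the sources used here give neither the counting program nor the list release. Entries of identical sequence had equal counts, and each of 30721 distinct sequences (48885 entries) was used once. The 23-base form of miR-21a-5p, with 52055 reads, had more than the 22-base form nested in it, with 9945. The 24-base form, which contains the 23-base form, had fewer, 16760. Reads were therefore taken as counted for 1 sequence each, and the exact rule is not known.

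Other species' entries were looked up letter for letter in 2202 miRNA hairpins of GENCODE release M21. Each was given to the mouse sequence it overlapped most, by at least 15 nt, if this was the same sequence at every place found. Entries whose places pointed to different mouse sequences, or with a place that overlapped none by that length, were left out of the end forms. The 6 forms so found on the arms of miR-21a all had the name miR-21. Intervals are exact, Clopper-Pearson for shares and, for ratios, binomial given the sum of both counts. The assignment and the intervals were tested on simulated data. With 1 library no comparison of the groups was possible.

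The miR-21a members, the list of 16 injury and fibrosis miRNAs, the markers and the alternatives were chosen with earlier results of these data known. Named were the members and their forms, miRNAs of the same name or seed, the 2 neighbours in rank on each side, the 3 closest end profiles, list members, markers and arms of at least 10000 reads. miR-30e-5p, miR-148b-3p and the hairpins other than Mir21a were named after their values were seen. Sequences and coordinates are from the deposited table and RefSeq (GRCm38.p6), in which both members matched. The tools were SciPy 1.17.1, NumPy 2.4.6, pandas 2.3.3 and matplotlib 3.10.9 under Python 3.11.15.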

Additional observations from a re-analysis of the deposited data

Results flagged for a closer look

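Reads of miR-21a-5p counted only under other species' names lay outside the mouse entries and far above the floor of 3 reads. These were 52055 reads of the 23-base form and 16760 reads of the 24-base form. No control library was analysed here, and the floor covers counting error only.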

How the results depend on the processing

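The share of miR-21a-5p, 0.149% of mouse reads, was 0.122% over all distinct sequences, 0.355% without miR-148a-3p in the sum and 0.981% with end forms, and each move follows from the reads added to or removed from the value or the sum. Its rank of 23 became 16 with end forms, 16 with end forms of the same start and 15 by the most abundant single form. Limiting the sum to sequences with at least 10 reads moved the share by less than its interval. The share of miR-21a-3p, between 2.45e-05% and 7.13e-05% under 3 alternatives, lay within the interval of its main value (3.64e-06 to 1.09e-04), as did the ratio of arms under 2. Both intervals are wide because the 3p entry had 2 reads, so lying within them does not show that the values are stable. The 12.6% of the arm held by the mouse entry was the same under 3 alternatives, because no other entry matches the arm. Leaving out a replicate was not possible with 1 library. No paired analysis was possible because the counts come from 1 library, and replicate numbers differ between the groups. Depth limits miR-21a-3p and the 25-base form, each with fewer reads than the floor on its entry.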

Other observations

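The 2 hairpin bases that follow the mouse entry of miR-21a-5p, C and then T, also follow those of miR-30a-5p, miR-30d-5p, miR-30e-5p and miR-148b-3p among the 22 arms with all 3 ends recorded. The miR-30 arms belong to a family with 1 seed and are abundant in epithelial cells and hepatocytes. The form with both bases held 41.1% of the 3 forms in miR-30a-5p, 35.2% in miR-30d-5p and 86.2% in miR-30e-5p, against 21.3% in miR-21a-5p. In miR-148b-3p it held 0.157%, and the mouse entry 99.2%. In miR-30c-5p the following bases are T and G, and its mouse entry has 23 bases, against 22 in the other miR-30 arms named. Its form 2 bases longer held 0.00377% and its form 1 base longer 13.6%. The same offset thus means another length in miR-30c-5p, and these shares are not like for like. These arms were picked after their values were seen, and no relation between the following bases and the end was tested.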
